A study of Mus musculus with 24 samples.

Results

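Mouse embryonic stem cells that depended on a CTCF carrying the H455R substitution were compared with cells that depended on wild-type CTCF. The comparison rests on 4 of the 24 libraries of the series, 2 with the H455R transgene and 2 with the wild-type transgene, and its members were chosen from the library labels. Each of the 12 groups in the series has 2 libraries. In H455R ID cells and in WT ID cells alike, 500 µM indole-3-acetic acid (IAA, an auxin) was given to degrade the endogenous CTCF, which carries an auxin-inducible degron, and 1 µg/ml doxycycline was given to switch on the Ctcf transgene, both for 2 days. For comparison, R448Q ID cells carried a substitution in the same zinc finger, 7 further mutant lines (R339Q, R342C, S354F, K365T, R377C, R377H and Q418R) received the same treatment, and WT IAA cells received IAA without doxycycline. All were E14Tg2a cells (129/Ola) grown without feeders in serum with leukemia inhibitory factor, CHIR99021 (a GSK3 inhibitor) and PD0325901 (a MEK inhibitor). The last group, untreated cells (WT UN), received neither IAA nor doxycycline and was used only for levels in TPM. The labels describe 1 modified line per transgene, so a difference between H455R ID and WT ID cells belongs to the substitution or to the line, and these cannot be told apart. The labels do not say that replicates were separate cultures, so p-values measure only the spread between these libraries, which may be technical.

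CTCF is a DNA-binding protein with an array of zinc fingers. It marks insulator elements and the bases of chromatin loops, where it halts cohesin as cohesin extrudes DNA, and it is bound at several imprinting control regions and at the promoters of clustered gene families. A classical zinc finger folds around a zinc ion that is held by a pair of cysteines and a pair of histidines, and the residues between the second cysteine and the first histidine contact DNA. H455R replaces one of the histidines of finger 7 with arginine.

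The coding sequence of finger 7 in mouse Ctcf shows where the substitution falls. In the GENCODE M21 annotation of mm10, the finger spans codons 439 to 460 of a protein of 736 residues. Its 66 bases are split between exons 7 and 8 on the plus strand, within chr8:105671398-105674891. The codon changed by H455R (CAC, histidine) lies at chr8:105674874-105674876 in exon 8 and is residue 17 of the finger counted from its first cysteine, which makes it the first of the zinc-binding histidines. The codon changed by R448Q (CGA, arginine) lies at chr8:105671425-105671427 in exon 7 and is residue 10. The endogenous exons are printed here joined, with these codons in capitals (R448Q first); the sequence of the transgene was not used here.
Ctcf finger 7: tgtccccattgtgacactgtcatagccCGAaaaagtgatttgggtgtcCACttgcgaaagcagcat

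The deposited values are normalized counts, that is, gene counts divided by 1 scaling factor per library, from which 36.0 and 49.2 M reads were recovered in the H455R ID libraries and 57.5 and 42.9 M in the WT ID libraries. The 22 libraries scaled together ranged over 27.8 to 77.1 M. Mitochondrially encoded transcripts took 1.78% and 2.28% of the reads in H455R ID and 1.62% and 1.92% in WT ID. The stem cell label fitted the markers. Pou5f1 (Oct4), a core pluripotency factor, had 21397 and 18994 normalized counts in H455R ID against 19161 and 19246 in WT ID (log2 fold change 0.07 ± 0.08, SE). Nanog, another core factor, had 42554 and 42359 in H455R ID against 35872 and 36562 in WT ID (0.23 ± 0.08), and neither gene was called, with adjusted p = 0.58 and 0.053 (limma, Benjamini-Hochberg). Sox2, their partner, had 15014 and 12786 in H455R ID against 16551 and 16642 in WT ID (−0.26 ± 0.08, adjusted p = 0.019). The Sox2 values of both H455R ID libraries lay below both of WT ID, but the call was lost in 3 of the 4 fits that leave out 1 library.

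Ctcf reads were counted without separating the transgene from the degron-tagged endogenous gene, as far as the sources used here say. Ctcf had 16951 and 16752 normalized counts in H455R ID against 9973 and 10418 in WT ID, a log2 fold change of 0.73 ± 0.06 (adjusted p = 1.5e-07). Both H455R ID libraries lay above both WT ID libraries. Ctcf lies on the distal part of chromosome 8, whose genes were higher as a whole in H455R ID with a median of 0.54 (below). R448Q ID cells had more, 20201 and 20661, so H455R ID was 0.28 lower than R448Q ID on the log2 scale (−0.28 ± 0.06, adjusted p = 0.001). The germline paralogue Ctcfl (BORIS) had 15.5 and 28.3 in H455R ID against 2.93 and 8.02 in WT ID (1.88 ± 0.65, adjusted p = 0.042), a call kept in 1 of the 4 fits that leave out 1 library.

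Against WT ID, 2365 genes rose in H455R ID and 1957 fell, of 18713 tested. These are 12.6% and 10.5% of all tested genes, the shares against which list counts for this contrast are read. The same shares were 22.7% and 21.9% against R448Q ID, 16.2% and 14.9% against the other 8 mutants and 13.8% and 11.8% against WT IAA, and list counts in those contrasts are read against them. A gene was called at an adjusted p under 0.05 (limma on log2(normalized count + 1), Benjamini-Hochberg over all tested genes), and fold changes are on that scale, which understates the change of low genes. A change of 2-fold or more was found for 727 of the genes that rose and 359 of those that fell. The median over all tested genes was −0.01. On TPM values 2327 genes were called higher and 1400 lower. The calls were fewer in each fit that leaves out 1 library, where 1 group is left with only 1 library. Their total of 4322 was 2564 with WT ID replicate 1 left out, 2684 with H455R ID replicate 1 left out, 2723 with WT ID replicate 2 left out and 3011 with H455R ID replicate 2 left out. With the genes of the shifted chromosome segments described next left out, a choice made after seeing the data, 1856 genes rose and 1945 fell.

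Genes on distal chromosome 8 were higher together in H455R ID. Of 763 tested genes from Tti2 onward (chr8:31150315-129282844), 708 had a log2 fold change above 0, 491 rose and 5 fell, with a median of 0.54. Each H455R ID library gave this median on its own (0.54 in both) against the mean of WT ID, and the WT ID libraries themselves lay at 0.00. The 175 tested genes from Insr up to 29286981 on the same chromosome had a median of −0.11, with 7 higher and 35 lower. R448Q ID cells were higher along the whole chromosome, by 0.36 in the proximal and 0.46 in the distal part, and K365T ID cells by 0.17 and 0.19. The medians of the other chromosomes from 1 to 19 and X lay between −0.07 and 0.01 in H455R ID. The segment limits were chosen after seeing the data.

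Chromosome 17 carried a second difference of the same kind. Of 17 tested genes from Clip4 to Crim1 (chr17:71768473-78376592), 15 rose in H455R ID and 1 fell, with a median of 0.98 over WT ID. The other 8 mutant lines also lay above WT ID there, with medians from 0.87 to 1.12, and WT IAA cells lay at 0.13. Beyond Crim1, from Fez2 onward, H455R ID parted from the other mutants. Its 74 tested genes had a median of −0.06 against WT ID, while the other 8 mutants had medians from 0.91 to 0.95 over WT ID. Against those 8 mutants, 63 of the 74 genes fell in H455R ID and 0 rose, with a median of −0.92. DNA content was not measured in these files, and line and substitution cannot be told apart for these blocks either.

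**Figure D1:**
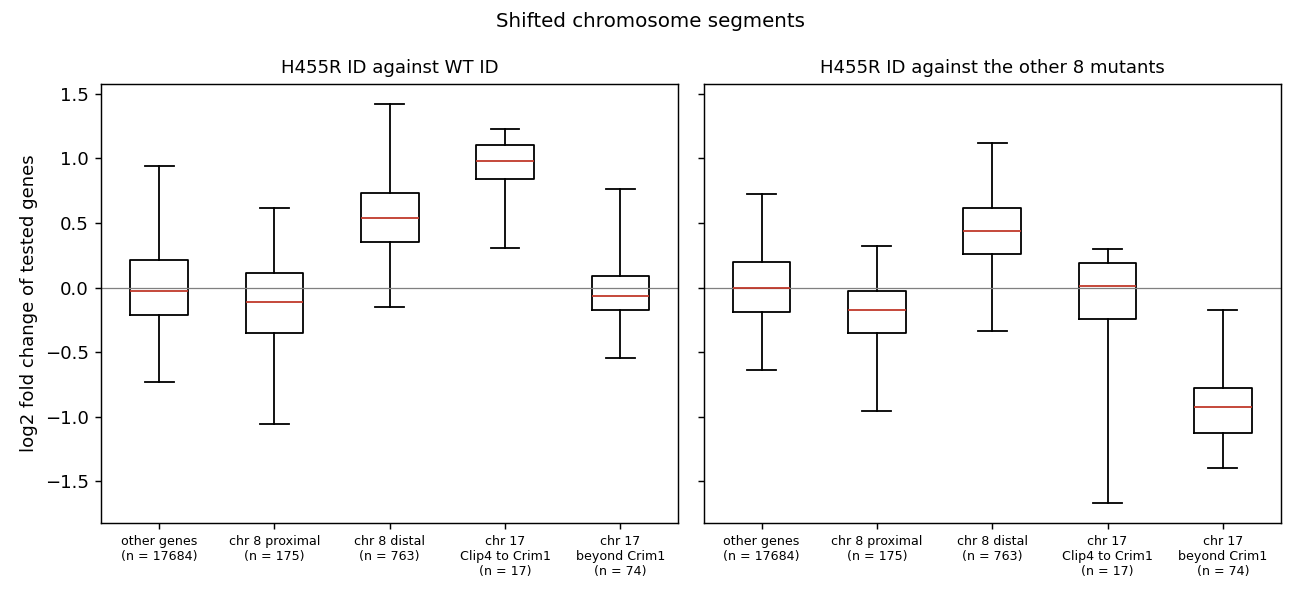
Log2 fold changes of tested genes in H455R ID cells by chromosome segment, against WT ID (left) and against the mean of the other 8 mutants (right); lines mark medians, boxes quartiles and whiskers the 5th and 95th percentiles. Distal chromosome 8 sits at 0.54 and 0.44, Clip4 to Crim1 at 0.98 and 0.01, and chromosome 17 beyond Crim1 at −0.06 and −0.92.

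The largest rise in H455R ID was that of Ptpru, which encodes a receptor-type protein tyrosine phosphatase. It had 1529 and 1562 normalized counts in H455R ID against 55.6 and 51.1 in WT ID (4.83 ± 0.26, adjusted p = 9.3e-10). Both H455R ID libraries were far above both WT ID libraries, and the call held in all 4 fits that leave out 1 library. No other group came near this level. The means of the other 8 mutants ran from 36.2 in Q418R ID to 179 in K365T ID, and WT IAA libraries had 46.5 and 34.2. Scaled per length and library, Ptpru averaged 16.7 TPM in H455R ID, 0.565 in WT ID and 0.55 in untreated cells, whose table was scaled separately. Its neighbours, which were looked up after the values of Ptpru were seen, fell. Mecr, a mitochondrial reductase gene 5.2 kb from Ptpru, had 162 and 155 in H455R ID against 297 and 271 in WT ID (−0.84 ± 0.12, adjusted p = 4.9e-05). Matn1, a cartilage matrix gene 813 kb away, had 112 and 143 in H455R ID against 353 and 272 in WT ID (−1.28 ± 0.19, adjusted p = 8.3e-05).

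Kcna2, which encodes a voltage-gated potassium channel subunit, showed the largest fall. It had 5.96 and 6.65 normalized counts in H455R ID against 219 and 151 in WT ID (−4.65 ± 0.41, adjusted p = 2.3e-07). The groups did not overlap, and H455R ID had the lowest mean of all 11 groups, below the 14.5 of R448Q ID, the lowest of the other mutants. WT ID had the highest mean of all groups (185). All other mutants, up to 131 in R342C ID, and WT IAA (45.6) lay below it too. The neighbours of Kcna2, Gm38253 and Prok1, were also looked up and were not called (adjusted p = 0.94 and 0.17). The promoters of Ptpru and Kcna2 are shown because they belong to the genes with the largest rise and the largest fall. Both come from RefSeq (GRCm38.p6) and hold 250 bases before and 50 after the annotated start. Ptpru is shown from the minus strand of chr4:131838229-131838528 and Kcna2 from the plus strand of chr3:107101317-107101616, with CpG dinucleotides in capitals.
Ptpru: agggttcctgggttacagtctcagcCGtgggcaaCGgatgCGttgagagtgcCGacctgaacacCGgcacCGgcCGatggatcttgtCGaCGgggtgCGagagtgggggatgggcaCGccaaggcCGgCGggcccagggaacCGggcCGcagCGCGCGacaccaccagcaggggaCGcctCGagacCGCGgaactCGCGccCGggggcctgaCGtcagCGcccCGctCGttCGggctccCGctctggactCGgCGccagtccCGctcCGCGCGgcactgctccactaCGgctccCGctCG
Kcna2: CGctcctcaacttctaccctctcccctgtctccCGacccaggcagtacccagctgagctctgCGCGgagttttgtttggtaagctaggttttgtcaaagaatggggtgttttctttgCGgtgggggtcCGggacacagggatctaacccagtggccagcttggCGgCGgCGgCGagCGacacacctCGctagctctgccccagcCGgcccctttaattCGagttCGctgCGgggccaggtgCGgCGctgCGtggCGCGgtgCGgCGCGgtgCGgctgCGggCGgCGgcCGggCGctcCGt
These windows hold 40 CpG dinucleotides in Ptpru and 31 in Kcna2, where the 32851 promoters of the table have a median of 7 (quartiles 3 and 20). The letters CCNNNAGNNGGC, a short form of the CTCF core motif searched on both strands, had no exact match in either window. Near matches were not counted, such as ccaccagcaggg in the Ptpru window, which differs only in its last letter. Exact matches were in 12.5% of the promoters of genes that rose (223 of 1790) and 12% of those of genes that fell (172 of 1435). The share was 12.4% over all tested genes with a promoter in the table (1513 of 12170) and 8.61% over all 32851 promoters, and no other overlapping motif was searched. This is a description of letters in a window and not of binding.

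The other large rises came from genes of several tissues at low to moderate levels. Mt3, a metal-binding metallothionein on distal chromosome 8, had 31.0 and 77.3 in H455R ID against 5.85 and 2.00 in WT ID (3.46 ± 0.47, adjusted p = 2.5e-05). Nav3, a microtubule-associated neuron navigator, had 84.7 and 80.6 in H455R ID against 7.32 and 8.02 in WT ID (3.27 ± 0.64, adjusted p = 9.9e-04). Cd4, the T cell co-receptor, had 632 and 678 in H455R ID against 92.2 and 89.2 in WT ID (2.84 ± 0.23, adjusted p = 8.1e-08). In all 3 genes both H455R ID libraries lay above both WT ID libraries. Krt7, a keratin of simple epithelia, had 440 and 249 in H455R ID against 33.6 and 45.1 in WT ID (3.06 ± 0.35, adjusted p = 3.9e-06), with the H455R ID replicates themselves well apart. Dppa1, named for its association with pluripotency, had 174 and 95.6 in H455R ID against 8.78 and 22.1 in WT ID (3.11 ± 0.51, adjusted p = 1.6e-04).

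The rest of the 15 largest rises by the naming rule were Pnliprp2 (a lipase-related gene, 3.15), Lsp1 (an actin-binding leukocyte protein, 3.08), Cdh20 (a cadherin, 2.96), Crispld2 (a secreted protein encoded on distal chromosome 8, 2.86) and Cd300ld (a myeloid receptor, 2.83). Trim43a (2.80), Dmkn (an epidermal secreted protein, 2.76), Siglecg (a sialic acid-binding lectin of B cells, 2.71) and Gsdma3 (a gasdermin, 2.70) completed them. Gsdma3 lost its call without WT ID replicate 2 (adjusted p = 0.064), and the others kept theirs in all 4 fits that leave out 1 library. Cd4 had a higher mean in R339Q ID (723) than in H455R ID (655). For the rest of the 15, H455R ID had the highest mean of all groups. R339Q ID came near it for Mt3 (52.6 against 54.1) and Cdh20 (53.5 against 58.5). Most other mutants lay above WT ID for Mt3, Cdh20, Crispld2 and Cd300ld. WT IAA cells, without the transgene induced, were also above WT ID for several of these genes. Mt3 had 39.3 and 50.0 in WT IAA and did not differ detectably from H455R ID (0.14 ± 0.47, adjusted p = 0.87). Neighbours of Mt3 and Nav3 were looked up too. Bbs2, a neighbour of Mt3 on distal chromosome 8, rose (0.82, adjusted p = 2.9e-05), as did E2f7, a neighbour of Nav3 (0.28, adjusted p = 0.012). Their neighbours on the other side, Gm45774 and Gm36283, were not called (adjusted p = 0.87 and 0.95). The strand setting of the counting is not stated, so values of genes that overlap an annotated gene on the opposite strand are uncertain. Among the rises and falls of this contrast these are Nav3, Lsp1, Krt7, Cdh20, Crispld2, Usp29, H2-Eb1, Xlr5a and Xlr5b, among the other chromosome 8 and run genes Cdh5, Psd3, Kctd19, Zmat4, Ank1 and Birc6, among the neighbours Prok1, Gm45774 and E2f7, and in the other contrasts Klk10, Igsf10, Cdc20b, Zfhx4, Sh3bgrl, Scn3a, Adamts3, Myl4 and Inhbe. The same holds for the list members Ctcf, Ctcfl, Pou5f1, Grhl2, Tdrd5, Eomes, Krt8, Tead4, Col5a1, Mest, Copg2, Gnas, Gab1, Ccnd1, Ccnd2, Slc7a11, Cox4i1, Cyp51, Jund, Id4, Oas1e, Tet3, Pcdhga11 and Pcdhga12.

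Among the falls, Ephx2, which encodes soluble epoxide hydrolase, had 210 and 143 normalized counts in H455R ID against 1433 and 1870 in WT ID (−3.23 ± 0.22, adjusted p = 2.2e-08). H455R ID was lower than each of the other 10 groups, of which R448Q ID was the lowest mutant at 486 and Q418R ID the highest at 6284. Its neighbour Ptk2b, a tyrosine kinase gene 28.8 kb away that was looked up after its values were seen, rose (408 and 465 in H455R ID against 255 and 275 in WT ID; 0.72 ± 0.12, adjusted p = 2.5e-04). Gulo, the neighbour of Ephx2 on the other side, was looked up too and was not called (0.08 ± 0.32, adjusted p = 0.90). H2-Eb1, an MHC class II chain, had 222 and 268 in H455R ID against 1276 and 1087 in WT ID (−2.27 ± 0.14, adjusted p = 8.4e-09). The H455R ID and WT ID libraries did not overlap for Ephx2, Ptk2b or H2-Eb1. R448Q ID had a still lower mean of H2-Eb1 (180 against 245 in H455R ID), and the remaining mutants ran from 460 to 1119. Dll1, a Notch ligand, had 15.5 and 15.0 in H455R ID against 155 and 70.2 in WT ID (−2.70 ± 0.68, adjusted p = 0.0065), and its call was lost without WT ID replicate 1 (adjusted p = 0.098).

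The remaining large falls were Klrb1c (a natural killer cell receptor, −2.52), Olfr901 (an olfactory receptor, −2.31), Tmprss13 (a membrane serine protease, −2.15), Vmn2r1 (a vomeronasal receptor, −2.13) and Arhgef38 (a guanine nucleotide exchange factor, −2.07). R448Q ID had lower means than H455R ID for Klrb1c (13.8 against 15.6), Olfr901 (6.4 against 12.1) and Tmprss13 (16.5 against 28.5). The same held for Vmn2r1 (16.1 against 18.3) and Dll1 (6.8 against 15.2), whereas Kcna2, Ephx2 and Usp29 were lower in H455R ID. Usp29 and the X-linked genes Xlr5c, Xlr5b, Xlr3c and Xlr5a are described with their gene families below. Arhgef38 had 284 and 332 in H455R ID against 1371 and 1222 in WT ID (adjusted p = 2.0e-06). The other mutants were low too, with means from 143 to 491, and H455R ID lay at 0.06 ± 0.17 from the mean of the other 8 mutants (adjusted p = 0.83).

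**Figure D2:**
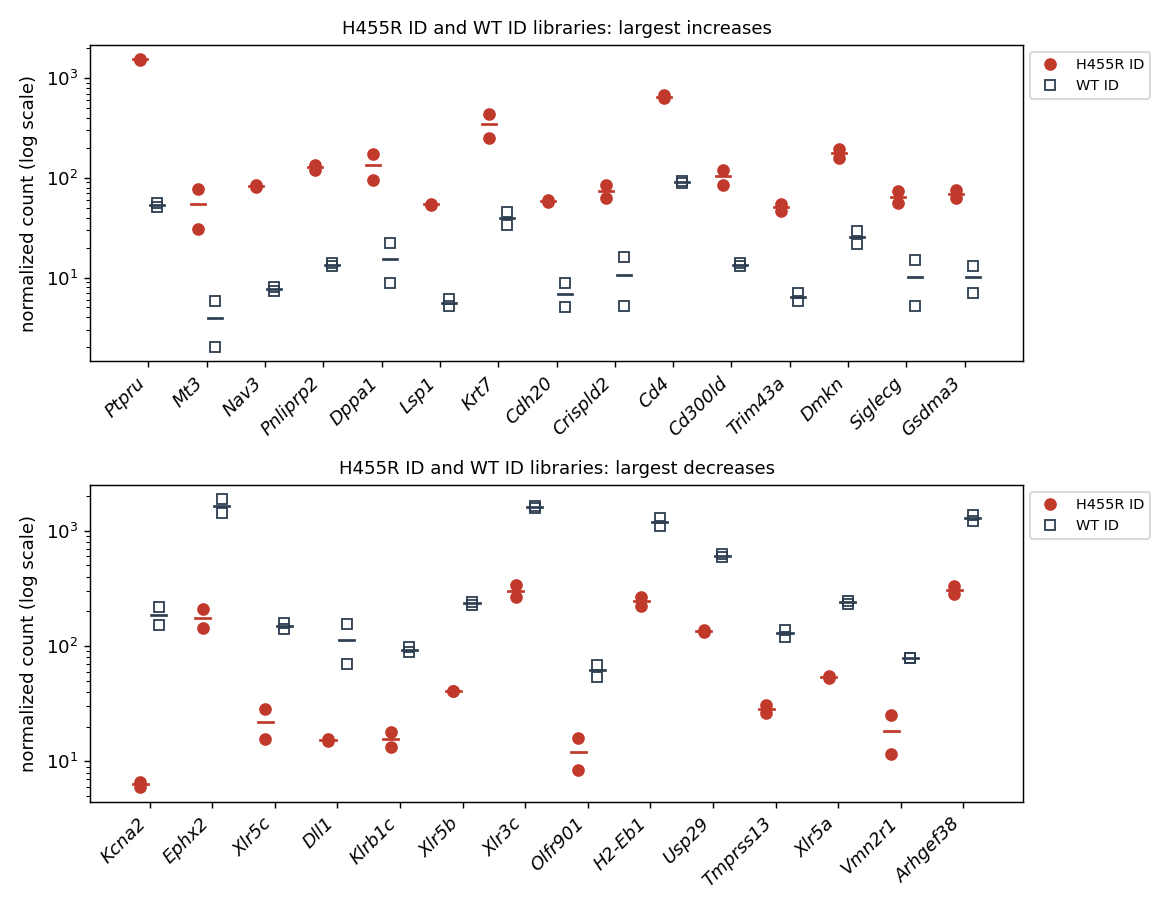
Normalized counts (log axis) in the 2 H455R ID and 2 WT ID libraries for the 15 largest increases (upper panel) and 14 of the 15 largest decreases (lower panel). Each point is 1 library; the H455R ID points of Ptpru stand at 1529 and 1562 and those of Kcna2 at 5.96 and 6.65, and the groups do not overlap for any gene shown, which the naming rule required.

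With chromosome 8 centred on its own median, the genes that stood out on it were named by rule. In each library 1 median was subtracted for the whole chromosome. Against WT ID its proximal part had a median of −0.11 and its distal part 0.54, so the ranking favoured falls of proximal genes. Cdh5, the endothelial cadherin, had 47.7 and 32.4 in H455R ID against 3.66 and 4.01 in WT ID (3.06 ± 0.39, adjusted p = 1.3e-05). Psd3, an exchange factor of the postsynaptic density, had 414 and 355 in H455R ID against 60.7 and 62.2 in WT ID (2.62 ± 0.20, adjusted p = 5.5e-08). Both exceeded their segment's median of 0.54, and Mt3 and Crispld2 were the other rises named there. Kctd19, a gene with a role in mouse spermatogenesis, had 3.58 and 7.48 in H455R ID against 23.4 and 22.1 in WT ID (−1.93 ± 0.50, adjusted p = 0.0079). Zmat4, a zinc finger gene, gave −1.42 (adjusted p = 0.014) and Ank1, the erythroid ankyrin, −1.39 (adjusted p = 0.0085). Each of these 3 lost its call in at least 2 of the 4 fits that leave out 1 library. Tex45, the last of them, had 4.77 and 4.99 in H455R ID against 12.4 and 18.0 in WT ID (−1.44 ± 0.52, adjusted p = 0.0496), and lost its call in all 4.

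Markers of the cultured cell type and of other cell types were counted from 30 gene lists. The lists and the comparison were chosen with earlier results of these data known, so list counts are descriptions. In bulk RNA, fewer cells of a type and less RNA per cell cannot be told apart. Of 30 core and naive pluripotency genes, 5 rose and 8 fell (median −0.07). Without H455R ID replicate 2 the falls were 4, omitting WT ID replicate 2 made them 5, and omitting replicate 1 of either group left 3 rises. Nr0b1 (Dax1), a nuclear receptor of naive cells, had 1575 and 1468 in H455R ID against 3561 and 3301 in WT ID (−1.17 ± 0.10, adjusted p = 2.4e-07). Zfp42 (Rex1), a naive marker encoded on distal chromosome 8, had 25989 and 24799 in H455R ID against 15595 and 16810 in WT ID (0.65 ± 0.07, adjusted p = 2.9e-06), and was no longer called after centring on its chromosome. Tcl1, an Akt co-activator, gave −0.66 ± 0.09 (adjusted p = 1.6e-05) and Klf5, a Krüppel-like factor, −0.48 ± 0.07 (adjusted p = 3.4e-05). The summed level of the list was 12602 and 12069 TPM in H455R ID and 13002 and 12454 TPM in WT ID. Of 21 tested formative and primed genes, 3 rose and 7 fell (median −0.23; 3 fell if replicate 1 of either group was omitted), with Grhl2, an epithelial transcription factor, among the rises (1.00).

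Genes of the 2-cell-like state, a rare state of stem cell cultures marked by genes of the early embryo, rose in H455R ID where they were called. Of 18 tested members 12 rose and 0 fell, with a median of 2.10, and 12 listed members were too low to test. Zscan4d, of a zinc finger cluster on chromosome 7, had 38.2 and 48.2 in H455R ID against 8.05 and 4.01 in WT ID (2.70 ± 0.63, adjusted p = 0.0039). Usp17la, a deubiquitinase, had 46.5 and 63.2 in H455R ID against 14.6 and 5.01 in WT ID (2.51 ± 0.61, adjusted p = 0.0052). Gm8300 gave 53.7 and 55.7 in H455R ID against 9.51 and 14.0 in WT ID (2.15 ± 0.50, adjusted p = 0.0039). Gm4340 had 39 reads over the H455R ID libraries against 3 over the WT ID libraries, a ratio of normalized counts of 15.1 with an exact 95% interval of 4.79 to 76.1 for counting error only. The count of 12 was lower in each fit that leaves out 1 library. Leaving out replicate 2 of H455R ID or of WT ID gave 4, and leaving out replicate 1 of either group gave 8. Against WT IAA 0 members rose and 0 fell (median −0.21), and against the other 8 mutants 7 rose and 0 fell. These genes are near-identical copies, so their separate values are uncertain. Summed TPM of the list was 350 and 383 in H455R ID and 292 and 272 in WT ID.

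Keratins and trophectoderm markers moved up too. Of 18 tested genes 11 rose and 2 fell (median 0.87; 6 to 9 rose when 1 library was left out, the 6 without WT ID replicate 2). Krt18 had 582 and 485 in H455R ID against 281 and 227 in WT ID (1.07 ± 0.17, adjusted p = 1.4e-04), and its partner Krt8 had 2622 and 2279 in H455R ID against 1196 and 1062 in WT ID (1.12 ± 0.19, adjusted p = 2.9e-04). Krt19 gave 2.02 ± 0.36 (adjusted p = 3.6e-04). The trophectoderm transcription factors Gata2 and Tead4 went the other way, Gata2 having 402 and 355 in H455R ID against 1174 and 976 in WT ID (−1.50 ± 0.25, adjusted p = 2.4e-04) and Tead4 giving −0.48 ± 0.08 (adjusted p = 1.4e-04). Summed TPM was 548 and 494 in H455R ID and 443 and 390 in WT ID, and 2 listed markers were at 0 in all 4 libraries.

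Of 16 primitive endoderm genes 7 rose and 1 fell (median 0.60; 3 rose if replicate 1 of either group was omitted and 5 otherwise), with Gata4, a transcription factor of that lineage, at 407 and 459 in H455R ID against 252 and 250 in WT ID (0.78 ± 0.14, adjusted p = 3.6e-04), and with the laminin gene Lama1 lower (−0.45). Their summed TPM was 438 and 425 in H455R ID and 375 and 343 in WT ID. Of 16 fibroblast and extracellular matrix genes 7 rose and 0 fell (median 0.19), and 4 rose in each fit that leaves out 1 library. Col5a1, a fibrillar collagen chain, had 3326 and 3795 in H455R ID against 1576 and 1451 in WT ID (1.23 ± 0.11, adjusted p = 1.8e-07). The mesenchymal surface protein Thy1 gave 1.92 ± 0.27 (adjusted p = 4.5e-05), and the list summed to 1414 and 1234 TPM in H455R ID and 1176 and 1073 TPM in WT ID. Of 20 Nodal pathway and mesendoderm genes 4 rose and 1 fell (median 0.09; 2 rose if replicate 2 of either group was omitted), and Eomes, a mesendoderm factor, gave 1.08 ± 0.22 (adjusted p = 0.0012). That list summed to 1521 and 1479 TPM in H455R ID and 1584 and 1591 TPM in WT ID. Of 14 neural ectoderm genes 4 rose and 2 fell (median −0.06; 1 or 2 rose and 0 to 2 fell with any 1 library omitted), with Sox1, an early neural factor, at −0.74 ± 0.16 (adjusted p = 0.0019), and the list summed to 258 and 276 TPM in H455R ID and 241 and 217 TPM in WT ID. The part of these markers in other results was not tested.

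Of 40 tested germline and meiosis genes 16 rose, 2 fell and 22 were not called against WT ID (median 0.32). Ddx4 (Vasa), a germ cell helicase, had 927 and 716 in H455R ID against 326 and 338 in WT ID (1.29 ± 0.16, adjusted p = 1.0e-05). Piwil2, of the piRNA pathway, had 661 and 669 in H455R ID against 282 and 284 in WT ID (1.23 ± 0.19, adjusted p = 1.0e-04). The transposon-silencing gene Tex19.2 gave 2.30 ± 0.29 (adjusted p = 1.0e-05) and the tudor-domain gene Tdrd5 1.53 ± 0.24 (adjusted p = 1.1e-04). Against R448Q ID, 2 of these 40 genes rose in H455R ID and 15 fell (median −0.24), where 22.7% of all tested genes rose and 21.9% fell. Against the other 8 mutants 5 rose and 13 fell (median −0.11), where 16.2% of all tested genes rose and 14.9% fell.

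Hox genes, which encode the homeodomain factors of the body axis and lie in CTCF-partitioned clusters, rose where they were called. Of 31 tested genes 11 rose and 0 fell against WT ID (median 0.58). Hoxc10 had 327 and 319 in H455R ID against 123 and 166 in WT ID (1.17 ± 0.22, adjusted p = 6.9e-04), and Hoxb4 had 297 and 253 in H455R ID against 163 and 142 in WT ID (0.84 ± 0.18, adjusted p = 0.0016). Hoxb13 gave 0.73 (adjusted p = 0.0012) and Hoxd9 0.58 (adjusted p = 0.011). Leaving out 1 library gave 3 (H455R ID replicate 1), 5 (WT ID replicate 1), 7 (WT ID replicate 2) or 8 (H455R ID replicate 2). Against the other 8 mutants 20 of the 31 rose and 0 fell (median 0.54).

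The clustered X-linked Xlr genes, lymphocyte-regulated genes with imprinted members, fell. Of 10 tested 9 fell and 0 rose (median −1.99), and 9 fell in every fit that leaves out 1 library. Xlr3c had 265 and 335 in H455R ID against 1644 and 1561 in WT ID (−2.42 ± 0.25, adjusted p = 1.7e-06). Xlr3a had 352 and 493 in H455R ID against 1642 and 1522 in WT ID (−1.92 ± 0.21, adjusted p = 3.4e-06). Xlr5c (−2.77), Xlr5b (−2.49) and Xlr5a (−2.13) fell as far, with reads shared among near-identical copies. The other mutants were low as well. Against their mean 1 of 10 fell and 0 rose (median 0.20), whereas against WT IAA 9 of 10 fell (median −1.91). Clustered protocadherins, cell-surface cadherins of neurons whose promoters CTCF binds, fell against WT ID where called. Of 16 tested 5 fell and 0 rose (median −0.57; 3 fell with WT ID replicate 1 omitted), including Pcdhga12 (38.2 and 51.5 in H455R ID against 130 and 109 in WT ID; −1.41 ± 0.23, adjusted p = 1.9e-04) and Pcdhga11 (−2.06 ± 0.39, adjusted p = 7.4e-04). Against the other 8 mutants 7 of 16 fell and 0 rose (median −0.77). Against WT IAA the direction was opposite, with 4 of 16 higher and 0 lower (median 0.54), where Pcdhga8 had 2 reads and Pcdhga9 3 over the WT IAA libraries. Of the 57 listed, 29 were at 0 in all 4 libraries of H455R ID and WT ID, and the Pcdhg transcripts share exons.

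Imprinted genes were called in both directions, where 12.6% of all tested genes rose and 10.5% fell. Of 53 tested 10 rose and 6 fell (median 0.08), and omitting H455R ID replicate 1 gave 6 rises and 3 falls. Mest, a paternally expressed gene, had 2371 and 2208 normalized counts in H455R ID against 407 and 423 in WT ID (2.46 ± 0.18, adjusted p = 2.6e-08). H455R ID had the highest mean of all groups, with the other mutants between 162 in Q418R ID and 1541 in R448Q ID. Copg2, which overlaps the end of Mest on the opposite strand, had 4849 and 4542 in H455R ID against 4518 and 4590 in WT ID (0.04 ± 0.09). Grb10, a growth-restraining adaptor, had 721 and 601 in H455R ID against 1626 and 1226 in WT ID (−1.10 ± 0.16, adjusted p = 6.0e-05). Gnas, a G protein subunit gene, gave −0.44 ± 0.07 (adjusted p = 2.1e-04). Gab1, a signalling adaptor on distal chromosome 8, gave 0.45 ± 0.07 (adjusted p = 1.6e-04), a direction that flips to −0.01 after centring on its chromosome.

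Peg3 and Usp29 are paternally expressed neighbours that are transcribed away from each other, and they moved in opposite directions. Peg3, a zinc finger gene, had 7998 and 6883 in H455R ID against 3038 and 5036 in WT ID (0.92 ± 0.19, adjusted p = 0.0015), with the WT ID libraries far apart and the call lost without WT ID replicate 1 (adjusted p = 0.058). Usp29, a ubiquitin protease gene, had 138 and 131 in H455R ID against 590 and 626 in WT ID (−2.16 ± 0.21, adjusted p = 6.1e-07). Neither pair of groups overlapped. Against the other 8 mutants Peg3 was higher in H455R ID (2.57 ± 0.14, adjusted p = 1.8e-10) and Usp29 lower (−1.23 ± 0.16, adjusted p = 6.7e-06). Single lines came near. The Peg3 mean was 6061 in R377H ID against 7441 in H455R ID, with the remaining mutants from 490 to 2342. The Usp29 means were 168 in R339Q ID and 176 in R342C ID against 135 in H455R ID, with the remaining mutants from 262 to 710. The interval between them is shown because both transcripts start at its ends. It is the plus strand of chr7:6730333-6730632 (RefSeq, GRCm38.p6), the Usp29 promoter with the 163 bases between the annotated starts of Peg3 and Usp29 in capitals. It holds 17 CpG dinucleotides and no match to CCNNNAGNNGGC on either strand.
Usp29: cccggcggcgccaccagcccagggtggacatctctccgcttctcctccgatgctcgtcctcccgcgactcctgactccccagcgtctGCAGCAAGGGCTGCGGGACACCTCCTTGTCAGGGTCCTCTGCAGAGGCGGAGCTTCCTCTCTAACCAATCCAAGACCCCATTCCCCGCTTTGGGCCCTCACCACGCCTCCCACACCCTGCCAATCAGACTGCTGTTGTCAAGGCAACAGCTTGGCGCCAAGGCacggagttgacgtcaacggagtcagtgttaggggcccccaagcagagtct

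The imprinted Dlk1 to Dio3 interval (chr12:109452823-110281097) was looked at after its values were seen. Meg3, its maternally expressed long noncoding RNA, had 15526 and 18251 in H455R ID against 9365 and 10902 in WT ID (0.74 ± 0.26, adjusted p = 0.043). Rian, the next noncoding RNA, had 23029 and 22291 in H455R ID against 13274 and 14461 in WT ID (0.71 ± 0.18, adjusted p = 0.0077). The groups did not overlap, but the Meg3 call was lost in all 4 fits that leave out 1 library and the Rian call in 2 of them. Of 38 tested genes in the interval, 25 of them microRNA genes, 3 rose and 0 fell against WT ID (median 0.62). Against the other 8 mutants 34 of 38 rose and 0 fell, with a median of 1.52. The means of Meg3 in the other mutants ran from 974 in S354F ID to 11687 in R377C ID. The genes of the interval can come from 1 long transcript, so they are not independent.

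**Figure D3:**
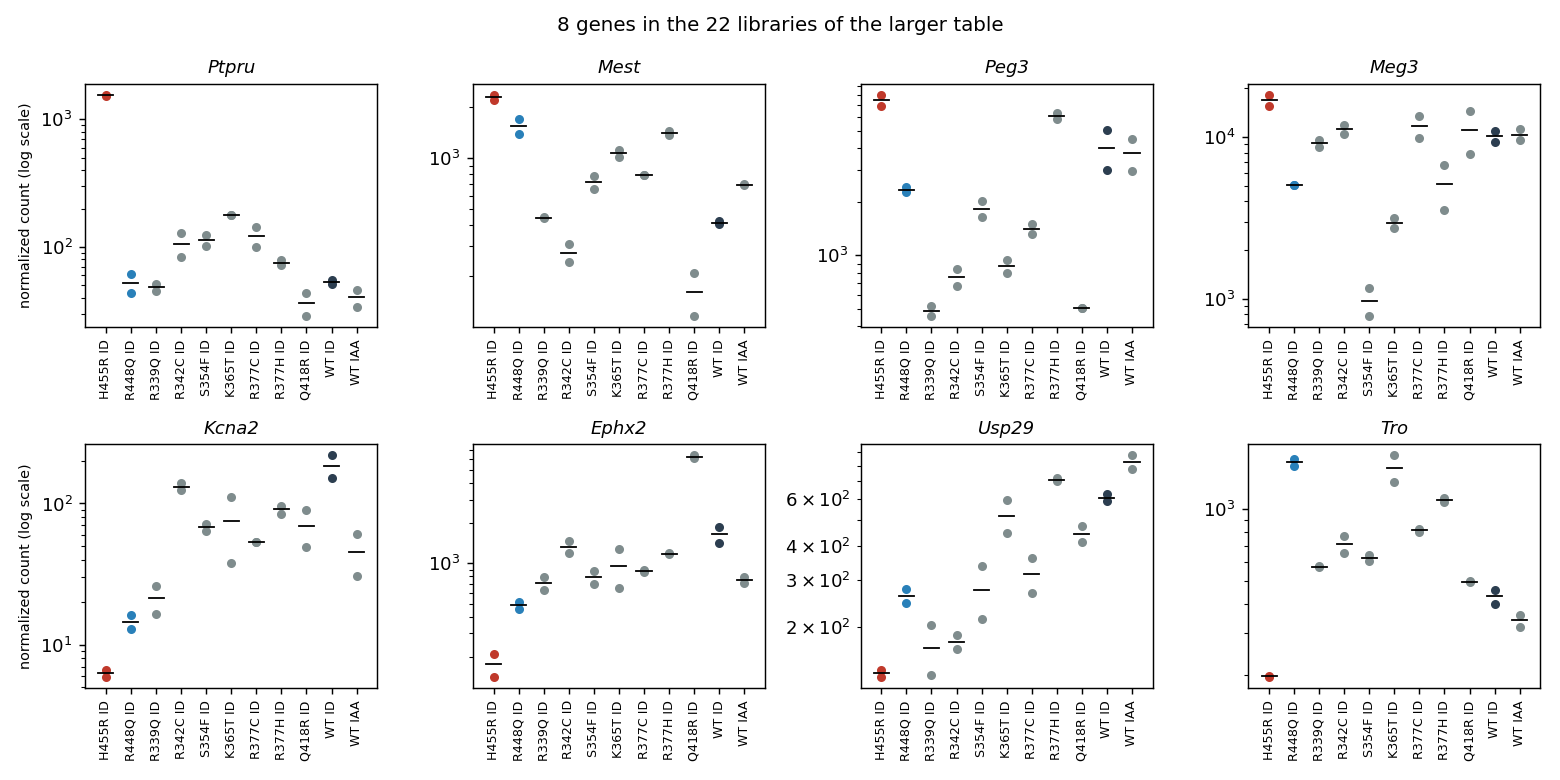
Normalized counts (log axis) of 8 genes in each of the 22 libraries scaled together, by group, with H455R ID at the left and a line at each group mean. H455R ID has the highest mean for Ptpru, Mest, Peg3 and Meg3 and the lowest for Kcna2, Ephx2, Usp29 and Tro.

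Cell cycle genes were slightly lower. Of 41 cell cycle and replication genes 4 rose and 21 fell (median −0.25), and 11 to 18 fell when 1 library was left out, the lowest counts being 11 (H455R ID replicate 1 left out) and 14 (WT ID replicate 1). Cdc25a, an S phase phosphatase, had 4138 and 4370 in H455R ID against 6144 and 5960 in WT ID (−0.51 ± 0.08, adjusted p = 1.7e-04). E2f1, a driver of S phase genes, gave −0.38 ± 0.07 (adjusted p = 5.0e-04). The D-type cyclins Ccnd1 and Ccnd2 rose. Ccnd1 had 1759 and 1651 in H455R ID against 756 and 793 in WT ID (1.14 ± 0.10, adjusted p = 1.3e-07), and Ccnd2 gave 1.42 ± 0.22 (adjusted p = 1.0e-04). Of 34 p53 targets 7 rose and 1 fell (median 0.09; 4 rose with H455R ID replicate 1 or WT ID replicate 2 omitted), including the cell cycle inhibitor gene Cdkn1a (0.59 ± 0.13, adjusted p = 0.0024) and the death receptor gene Fas (32.2 and 29.1 in H455R ID against 6.58 and 8.02 in WT ID; 1.93 ± 0.39, adjusted p = 0.0011).

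Among cohesin, loop extrusion and CTCF partner genes, 7 of 32 rose and 5 fell (median −0.05). With replicate 1 of either group omitted 4 rose, and with WT ID replicate 2 omitted 3 fell. The cohesin loader Mau2 (0.53) and the remodeller Smarca5 (0.54) lie on distal chromosome 8, and outside the shifted segments 3 of 28 rose and 5 fell. Esco2, a cohesin acetyltransferase, had 3804 and 4018 in H455R ID against 5994 and 6033 in WT ID (−0.62 ± 0.09, adjusted p = 3.6e-05). Of 22 DNA methylation and imprint maintenance genes 3 rose and 5 fell (median −0.10; 1 rose with H455R ID replicate 1 omitted). The demethylation enzyme Tet3 had 1968 and 2044 in H455R ID against 3717 and 3013 in WT ID (−0.74 ± 0.10, adjusted p = 2.1e-05), and Uhrf1, which recruits the maintenance methyltransferase, gave −0.40 ± 0.08 (adjusted p = 9.0e-04).

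Signalling lists had calls in both directions, where 12.6% of all tested genes rose and 10.5% fell. Of 25 Wnt and beta-catenin targets 5 rose and 3 fell (median 0.10; 4 rose with H455R ID replicate 2 omitted and 3 with any other library omitted). Apart from Ccnd1, described above, the strongest lie on chromosome 8 with opposite signs, the Wnt feedback inhibitor Nkd1 in its distal part with 444 and 485 in H455R ID against 149 and 122 in WT ID (1.77 ± 0.17, adjusted p = 4.9e-07) and the secreted inhibitor Sfrp1 in its proximal part with 9043 and 8718 in H455R ID against 12598 and 13272 in WT ID (−0.54 ± 0.06, adjusted p = 5.2e-06). Of 29 ERK feedback and immediate early genes 6 rose and 7 fell (median 0.20). Omitting replicate 2 left 2 rises for WT ID and 3 for H455R ID, and 3 fell with WT ID replicate 1 omitted and 4 with H455R ID replicate 2 omitted. Jund, an AP-1 subunit on distal chromosome 8, gave 1.12 ± 0.16 (adjusted p = 5.5e-05), and Klf6, an immediate early zinc finger gene, had 7647 and 6077 in H455R ID against 4422 and 4614 in WT ID (0.59 ± 0.11, adjusted p = 5.2e-04). Of 20 BMP signal and Id genes 7 rose and 2 fell (median 0.18; 3 rose with WT ID replicate 2 omitted and 4 with H455R ID replicate 2 omitted), with Id4, an inhibitor of helix-loop-helix factors, at 515 and 479 in H455R ID against 979 and 984 in WT ID (−0.98 ± 0.15, adjusted p = 7.0e-05). The BMP effector Smad1, also on distal chromosome 8, gave 0.64 ± 0.08 (adjusted p = 1.4e-05). Of 27 interferon response and MHC class I genes 9 rose and 4 fell (median 0.29; 1 fell if replicate 1 of either group was omitted). The antiviral synthetase genes Oas1e (129 and 134 in H455R ID against 18.3 and 22.1 in WT ID; 2.65 ± 0.28, adjusted p = 2.0e-06) and Oasl2 (3.04 ± 0.48, adjusted p = 1.3e-04) rose, and Ddx58, the RNA sensor RIG-I, fell (134 and 142 in H455R ID against 388 and 384 in WT ID; −1.48 ± 0.15, adjusted p = 1.2e-06).

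Of 38 integrated stress response genes 4 rose and 5 fell (median −0.07; 1 to 5 rose and 2 to 8 fell with any 1 library omitted). Slc7a11, the cystine transporter, had 197 and 132 in H455R ID against 71.7 and 63.2 in WT ID (1.25 ± 0.29, adjusted p = 0.0034; 0.071 without H455R ID replicate 1). Slc7a3, a cationic amino acid transporter, had 1722 and 1562 in H455R ID against 2486 and 2456 in WT ID (−0.59 ± 0.09, adjusted p = 6.8e-05). Of 31 heat shock and unfolded protein response genes 11 rose and 2 fell (median 0.22), with the co-chaperone Dnajb1 (0.57, on distal chromosome 8) among the rises and Hsph1 (−0.60) among the falls. With H455R ID replicate 1 omitted 3 rose, with WT ID replicate 1 omitted 4, and with either of the others 8. Of 32 cholesterol and fatty acid synthesis genes 4 rose and 8 fell (median −0.16), and the falls were 2 with WT ID replicate 1 omitted, 3 with H455R ID replicate 2 omitted and 4 with WT ID replicate 2 omitted, while 1 rose with H455R ID replicate 1 or WT ID replicate 2 omitted. They were led by the sterol enzyme Cyp51 (−0.66 ± 0.10, adjusted p = 6.3e-05). Of 19 small nucleolar RNA host genes 2 rose and 7 fell (median −0.39), with Snhg17 at −1.10 ± 0.22 (adjusted p = 9.4e-04), and 1 to 4 fell when 1 library was left out. Of 19 aryl hydrocarbon receptor and xenobiotic genes 2 rose and 4 fell (median −0.02), and no direction kept its count with every library omitted in turn (0 to 2 rose, 0 to 4 fell). Of 35 glycolysis and hypoxia genes 3 rose and 3 fell (median 0.01; 1 fell with WT ID replicate 1 omitted). The oxygen sensor Egln1, on distal chromosome 8, gave 0.69 ± 0.12 (adjusted p = 2.1e-04) and the angiogenic factor Vegfa −0.43 ± 0.09 (adjusted p = 0.002). Of 50 nuclear oxidative phosphorylation genes 1 rose and 0 fell (median −0.04), and the riser, the cytochrome oxidase subunit Cox4i1 (0.62), lies on distal chromosome 8. Of 15 mitochondrially encoded genes 0 were called (median 0.18), and of 30 replication-dependent histone genes 0 rose and 1 fell (median −0.16).

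**Figure D4:**
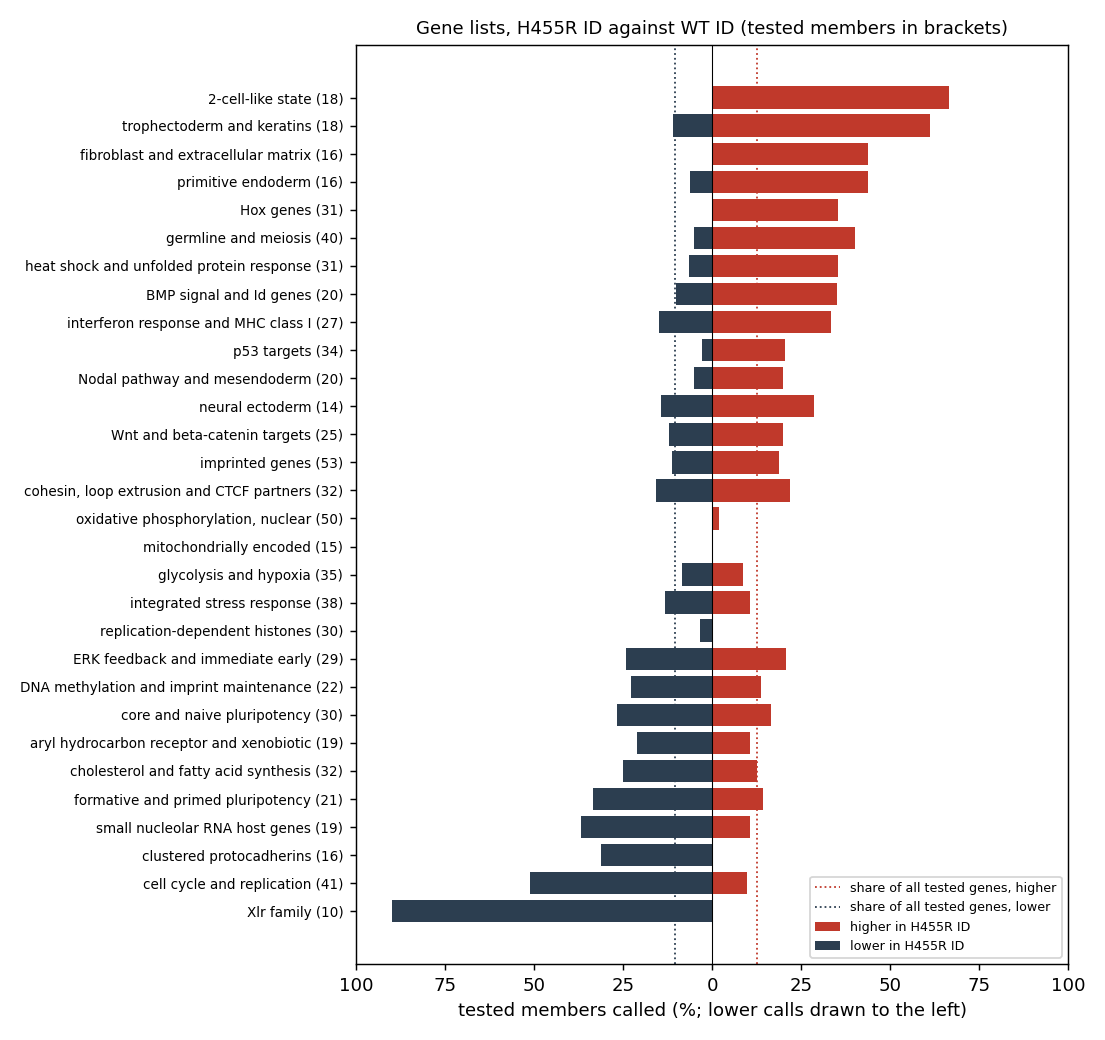
Share of tested members called higher (bars to the right) and lower (bars to the left) in H455R ID against WT ID for 30 gene lists, with the number tested in brackets and dotted lines at the shares of all tested genes, 12.6% higher and 10.5% lower. The 2-cell-like list reaches 12 of 18 higher and the Xlr list 9 of 10 lower.

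Changed genes also stood next to each other along the chromosomes. Outside chromosome 8 there were 33 runs of at least 4 consecutive tested genes called in 1 direction, 17 higher and 16 lower, with 155 genes in all. The longest was the chromosome 17 run from Memo1 to Crim1 with 11 genes, in which Birc6, an inhibitor of apoptosis, had 22609 and 20606 in H455R ID against 9877 and 9214 in WT ID (1.18 ± 0.12, adjusted p = 1.2e-06). The X-linked run from Pnma5 to Xlr4b held 10 lower genes (median −2.03) and overlaps the Xlr list. Chromosome 18 held a run of 7 higher genes from Sncaip to Csnk1g3 (median 0.44) and one of 6 lower genes from Gm10557 to Zfp438 (median −0.64), in which Svil, the actin-binding supervillin gene, had 237 and 240 in H455R ID against 680 and 492 in WT ID (−1.27 ± 0.18, adjusted p = 3.5e-05). Runs of 5 followed. Hoxc11 to Hoxc8 on chromosome 15 rose with a median of 0.93, and Syt13 to Cd82 on chromosome 2 rose with a median of 1.32. Syt13, a synaptotagmin, had 59.6 and 54.0 in H455R ID against 9.51 and 9.02 in WT ID (2.49 ± 0.39, adjusted p = 1.1e-04). The runs around Prnp on chromosome 2 (median −1.15) and Zfp992 on chromosome 4 (−1.12) fell.

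H455R and R448Q lie in the same finger, and the direct contrast of their lines was wide. H455R ID exceeded R448Q ID in 4256 genes and fell below it in 4093, which are 22.7% and 21.9% of the 18713 tested. On TPM values the split was 6177 higher and 2280 lower, with the median of all genes at 0.19. Of the calls, 1814 higher and 781 lower were at least 2-fold. The median of chromosome 1 was −0.48 and that of chromosome 3 was −0.49 in this contrast, while both stood at 0.01 and −0.03 against WT ID. Acta2, the smooth muscle actin gene, had 140 and 133 normalized counts in H455R ID against 2.02 and 0.924 in R448Q ID, which are 2 reads and 1 read. The log2 fold change was 5.83 ± 0.56 (adjusted p = 7.5e-08), and the ratio of normalized counts was 93.8 with an exact 95% interval of 31.8 to 458 for counting error only. Nav3 likewise had 3 reads in R448Q ID, with a ratio of 56.9 (interval 19.13 to 279). Klk10, a secreted kallikrein protease, had 278 and 267 in H455R ID against 9.07 and 6.47 in R448Q ID (4.98 ± 0.33, adjusted p = 9.4e-10).

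Other large rises over R448Q ID were those of Epn3, Msln, Krt7, Ptpru and Dppa1. Epn3, an epithelial epsin, had 112 and 102 in H455R ID against 3.02 and 2.77 in R448Q ID (4.79 ± 0.41, adjusted p = 1.6e-08). Msln, the mesothelial surface protein mesothelin, had 99.0 and 87.3 in H455R ID against 2.02 and 4.62 in R448Q ID (4.51 ± 0.33, adjusted p = 2.6e-09). Krt7 gave 4.12 ± 0.35 (adjusted p = 1.5e-08), Ptpru 4.87 and Dppa1 4.86. Msln did not differ detectably from WT ID (−0.50 ± 0.33, adjusted p = 0.31), and neither did Epn3 (0.91 ± 0.41, adjusted p = 0.12). Among trophectoderm and keratin genes 12 of 18 rose over R448Q ID and 1 fell (median 0.88), where 22.7% of all tested genes rose and 21.9% fell.

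Of the 8 largest falls below R448Q ID, 4 lie on chromosome 1 or 3, whose medians were shifted. Igsf10, an immunoglobulin superfamily gene on chromosome 3, had 34.6 and 24.1 in H455R ID against 653 and 567 in R448Q ID (−4.35 ± 0.30, adjusted p = 1.5e-09). Sohlh2, a germ cell transcription factor also on chromosome 3, had 798 and 763 in H455R ID against 6704 and 6717 in R448Q ID (−3.10 ± 0.19, adjusted p = 4.3e-10) and 759 and 798 in WT ID. Zfhx4, a homeodomain factor gene on chromosome 3, gave −4.22 and Ap1s3, an adaptor complex subunit gene on chromosome 1, gave −3.14. Sh3bgrl on the X chromosome had 79.9 and 61.5 in H455R ID against 1184 and 1023 in R448Q ID (−3.95 ± 0.26, adjusted p = 8.5e-10). Mobp, a myelin gene, gave −3.83, Cdc20b −4.27, and Scn3a, a sodium channel gene, −3.16. Against WT ID, 3 of these 8 fell in H455R ID, Cdc20b (−1.36), Zfhx4 (−1.33) and Scn3a (−1.08), and these lost the call in 3, 4 and 1 of the 4 fits that leave out 1 library.

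**Figure D5:**
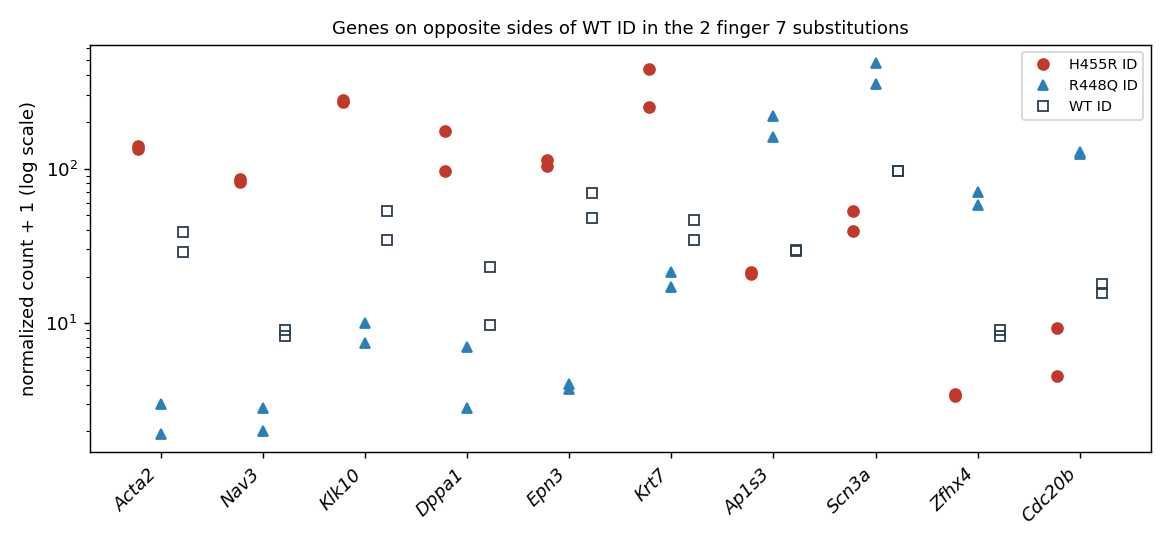
Normalized counts + 1 (log axis) of 10 genes in H455R ID (circles), R448Q ID (triangles) and WT ID (open squares), 2 libraries each, ordered by the difference of H455R ID from R448Q ID. These 10 of the 16 genes named in this contrast were chosen because both WT ID libraries lie between the finger 7 lines, from Acta2 at 140 and 133 against 2.02 and 0.924 to Cdc20b at 3.58 and 8.31 against 126 and 124 normalized counts.

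Against the mean of the other 8 mutants, 3028 genes rose in H455R ID and 2797 fell, or 16.2% and 14.9% of those tested. On TPM values the split was 3661 and 1800. At least 2-fold were 467 rises and 330 falls. The 5825 calls became 3130 with H455R ID replicate 1 left out and 3858 with H455R ID replicate 2 left out. Ptpru (4.25 ± 0.19, adjusted p = 1.2e-11), Acta2 (4.0 ± 0.42, adjusted p = 7.4e-07) and Nav3 (3.81 ± 0.48, adjusted p = 6.5e-06) rose most, followed by Gsdma3 (3.03). Myl9, a smooth muscle myosin light chain, had 97.8 and 152 in H455R ID, and the other mutants' means ran from 5.61 to 48.7 (2.69 ± 0.32, adjusted p = 3.0e-06). Dppa1 (2.59), Peg3 (2.57) and Adamts3, a procollagen protease (2.46), completed the 8. Adamts3 was at 53.7 and 55.7 in H455R ID against 72.4 and 53.1 in WT ID, so that it was the other mutants that lay lower, at 2.44 to 28.3.

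The falls below the other mutants were led by Kcna2 (−2.88 ± 0.31, adjusted p = 1.0e-06) and Xkr9, a scramblase family gene (−2.79 ± 0.20, adjusted p = 7.2e-09). Tro, the X-linked trophinin gene, had 197 and 199 in H455R ID, while the means of the other mutants ran from 495 to 1578 and WT ID had 399 and 458 (−2.09 ± 0.09, adjusted p = 5.4e-12). Tbx21 (T-bet), a lymphocyte transcription factor, had 40.5 and 49.9 in H455R ID, while the means of the other mutants ran from 68.5 to 735 and WT ID had 159 and 142 (−2.02 ± 0.17, adjusted p = 4.7e-08). H455R ID was the lowest of all 11 groups for both genes. Ephx2 (−2.66), Col6a3, a collagen VI chain (−2.66), Alk, a receptor tyrosine kinase gene within Clip4 to Crim1 (−2.42), and Myl4, a myosin light chain (−2.04), were the others. Cell cycle genes were lower here too, 21 of 41 against 4 higher (median −0.17).

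WT IAA cells carry the wild-type transgene without doxycycline, so both line and doxycycline differ from H455R ID. Against them 2574 genes rose in H455R ID and 2211 fell, 13.8% and 11.8% of those tested, with 580 and 411 at least 2-fold. The 4785 calls became 2930 with H455R ID replicate 1 left out and 2931 with WT IAA replicate 1 left out. Integrated stress response genes were higher, 33 of 38 with 0 lower (median 0.86), whereas 4 rose and 5 fell against WT ID. WT ID differs from WT IAA in doxycycline and in the transgene that doxycycline induces. These cannot be told apart, and the cause was not tested. Il9r, a cytokine receptor gene, had 117 and 91.4 normalized counts in H455R ID against 2.68 and 0 in WT IAA, which are 3 reads and 0, a ratio of 65.8 with an exact 95% interval of 22.2 to 322 for counting error only. Il9r in WT ID stood at 82.7 and 83.2 and did not differ detectably from H455R ID (0.31 ± 0.42, adjusted p = 0.66). Duox1, an oxidase gene, behaved alike, with 781 and 746 in H455R ID against 81.3 and 98.8 in WT IAA (3.08 ± 0.22, adjusted p = 1.8e-08). Ptpru (5.24), Inhbe, an activin subunit gene (3.24), and Irf8, an interferon regulatory factor gene (2.82), were the other large rises.

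Nsg2, a neuronal vesicle gene, had 20.3 and 15.0 in H455R ID against 175 and 160 in WT IAA (−3.19 ± 0.32, adjusted p = 1.2e-06). Serpina3m, a protease inhibitor, gave −2.84 and the stem cell noncoding RNA Platr15 −2.66, and WT ID stood between the groups for all 3 genes. Usp29 (−2.60 ± 0.21, adjusted p = 8.4e-08) and H2-Eb1 (−2.52 ± 0.14, adjusted p = 1.6e-09) fell against WT IAA about as far as against WT ID. The comparisons with WT ID, the other mutants and WT IAA use the same H455R ID libraries, so their values are not independent of each other.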

How the data were processed

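RNA from 24 libraries was sequenced after ribosomal depletion with a stranded total RNA kit, per the labels' protocols; the submitters' processing notes list mm10, Trim Galore, STAR and DESeq2. The deposited signal values are gene counts that the authors divided by 1 scaling factor per library, per the values themselves: dividing each by its library's smallest step gave whole reads for all values within 0.001. The authors also deposited TPM values for the same genes, used as an alternative and for levels of the untreated libraries, which were scaled separately. No source used here gives the strand setting or annotation of the counting.

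From 55291 symbols (53186 placed once in GENCODE M21), 18713 with a mean of at least 10 were tested. limma 3.58.1 (R 4.3.3) was fitted with a trend on log2(normalized count + 1) of 22 libraries, 1 coefficient for each of 11 groups, with Benjamini-Hochberg adjustment over all tested genes and calls under 0.05. Residual degrees of freedom were 11, and the prior added 8.13. edgeR 4.0.16 and DESeq2 1.42.0 on the recovered reads, TPM (log2 of TPM + 0.1), pseudocounts of 0.5 and 5, a mean of at least 50 or no minimum, quantile normalization, chromosome centring, the replicate number as a block and leaving out each library were alternatives. The model step was tested on simulated counts.

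Replicates differed beyond sampling noise, so no library was counted as deposited 2 times. Of 915 listed genes in 30 lists, 913 matched, 39 of them through a synonym. The comparison, its lists and segments were chosen with earlier results of these data known. Named were the 15 largest called rises and falls against WT ID (8 against R448Q ID and the other mutants, 5 against WT IAA) with a mean of at least 50 in the higher group, no overlap and no gene-model symbol, 4 each way on chromosome 8 after centring, the 4 list members with the smallest adjusted p, members of the longest runs, and Ctcf, Ctcfl, Pou5f1, Sox2 and Nanog. Mecr, Matn1, Ptk2b, Gulo, Gm38253, Prok1, Bbs2, Gm45774, E2f7, Gm36283, Copg2, Gnas, Krt8, Krt19 and the Dlk1 to Dio3 interval with Meg3 and Rian were added after their values were seen. Intervals on ratios cover counting error only. Some genes that these rules name are not reported here.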

Additional observations from a re-analysis of the deposited data

Results flagged for a closer look

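For 10 genes named in the contrast of H455R ID with R448Q ID, both H455R ID libraries lay on one side of both WT ID libraries and both R448Q ID libraries on the other, and the difference between the mutant lines was tested directly (limma, Benjamini-Hochberg). Higher in H455R ID were Acta2 (5.83, adjusted p = 7.5e-08), Nav3 (5.13, adjusted p = 2.1e-06), Klk10 (4.98, adjusted p = 9.4e-10), Dppa1 (4.86, adjusted p = 2.0e-07), Epn3 (4.79, adjusted p = 1.6e-08) and Krt7 (4.12, adjusted p = 1.5e-08). Lower in H455R ID were Cdc20b (−4.27, adjusted p = 1.9e-07), Zfhx4 (−4.22, adjusted p = 3.9e-07), Scn3a (−3.16, adjusted p = 1.2e-08) and Ap1s3 (−3.14, adjusted p = 2.1e-06). WT ID had 27.8 and 38.1 normalized counts of Acta2, 33.6 and 52.1 of Klk10, 46.8 and 68.2 of Epn3, 14.6 and 17 of Cdc20b and 95.8 and 95.3 of Scn3a. Each group has 2 libraries of 1 line, so substitution and line cannot be told apart.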

How the results depend on the processing

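Total counts of called genes stayed within 1.5 times of the reported ones under every alternative tried other than leaving out 1 library. The split by direction moved further on TPM, to 2327 higher and 1400 lower against WT ID and to 6177 higher and 2280 lower against R448Q ID. With 1 library left out, the count ranged from 2564 to 3011 against WT ID, 2930 to 3505 against WT IAA, 3130 to 6109 against the other 8 mutants and 6616 to 6927 against R448Q ID. The chromosome 8 median of 0.464 was 0.486 on TPM, 0.461 with a mean of at least 50, and 0.466 to 0.471 with 1 library left out. Under chromosome centring the sign turned for Gab1 (−0.013) and Hmox1 (−0.047), and under quantile normalization for Sohlh2 (−0.0052). With 1 library left out, values against WT ID ranged across 0 for Adamts3 (−0.399 to 0.0399), Igsf10 (−0.10 to 0.63), Pou5f1 (−0.016 to 0.16), Sohlh2 (−0.0328 to 0.0391) and mt-Rnr1 (−0.0018 to 0.644); the cause was not tested. Over 235 named-gene values, 2440 alternatives other than leaving 1 out kept direction and call, 73 lost the call, 20 gained it and 3 turned; leaving 1 library out gave 778, 155, 1 and 6, and 70 genes lost the call at least once. Replicate numbers shared no deviations (correlations −0.0116 with WT ID, 0.0714 with R448Q ID and 0.0261 with WT IAA), and a fit with the replicate number as a block called 4335 genes against WT ID, 8366 against R448Q ID, 5861 against the other 8 mutants and 4773 against WT IAA. With 2 libraries per group, low genes near 10 normalized counts are the least certain.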
